A study of Homo sapiens with 27 samples.

Results

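The 10 genes described here encode amino acid transporters of the cell surface or their partner chain: SLC7A1, SLC7A5, SLC3A2, SLC7A11, SLC1A5, SLC1A4, SLC38A1, SLC38A2, SLC43A1 and SLC6A9. They were chosen by symbol from a table of FPKM values (fragments per kilobase of transcript, scaled to library size) for 26004 genes, and each symbol had 1 row. Gene positions are those of GENCODE 44 on GRCh38. RNA was sequenced from 27 libraries of 3 established human melanoma lines, A2058, A375 and SKMEL2, of which A2058 and A375 are known as BRAF-mutant and SK-MEL-2 as NRAS-mutant. In each line 6 libraries came from cells given a lentiviral hairpin against SIRT5, a mitochondrial and cytosolic lysine deacylase, and 3 from control cells (NT) given a hairpin against Gaussia luciferase, which human cells lack. The knockdown libraries fall into arms KD1 and KD2, 1 per hairpin, with 3 libraries each. The labels call the hairpins 546 and 547, and the sources used here do not tie these names to KD1 and KD2. All arms, the controls included, share the pLKO.1 backbone, polybrene at 8 µg/ml, puromycin at 1 µg/ml and a harvest 96 h after transduction. The 3 libraries of an arm came from 3 wells, so a p-value here measures only how far such wells vary, and that variation may be technical.

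Cells take up amino acids through transporters that differ in substrate and in what drives them. SLC7A5 (LAT1) exchanges intracellular glutamine for leucine and other large neutral amino acids, and it reaches the cell surface only as a heterodimer with the heavy chain SLC3A2 (CD98). SLC7A11 (xCT) uses the same heavy chain and exchanges glutamate for cystine, the source of cysteine for glutathione. SLC1A5 (ASCT2), SLC1A4 (ASCT1), SLC38A1 (SNAT1) and SLC38A2 (SNAT2) carry small neutral amino acids with sodium, SLC7A1 (CAT1) carries arginine and lysine, SLC43A1 (LAT3) passes large neutral amino acids by facilitated diffusion, and SLC6A9 (GlyT1) takes up glycine. Several of these genes are known targets of the stress factor ATF4, and leucine brought in by SLC7A5 feeds the growth kinase complex mTORC1.

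SIRT5 was lower in every knockdown library than in every control library of its line. Its mean was 8.44% of control with KD1 and 20.04% with KD2 in A2058, 3.89% with KD1 and 12.4% with KD2 in A375, and 7.01% with KD1 and 19.98% with KD2 in SKMEL2. Each library had, in reads assigned to genes (rounded), 29339000 to 54453000 in A2058, 7097000 to 23892000 in A375 and 20184000 to 40463000 in SKMEL2. The A375 libraries stood apart in a further way. Their deviations from the arm means had an SD over genes of 0.161 to 0.376 log2 units, against 0.138 to 0.157 in A2058 and 0.118 to 0.149 in SKMEL2, and in 7 of the 9 they followed the GC content of the transcripts (r across genes of -0.65 to -0.40 or 0.41 to 0.54). The other 2, NT replicate 1 and KD1 replicate 1, had r of 0.01 and 0.06. In A2058 r was -0.32 to 0.20 and in SKMEL2 -0.18 to 0.17. Of 10 melanocyte lineage markers, all 10 had a control mean of at least 1 FPKM in A2058 and in SKMEL2, but only 3 did in A375, where TYR, DCT and MLANA stayed below 1. The summed FPKM of these markers was 669 to 812 after knockdown and 895 to 921 in controls in A2058, 250.1 to 407 after knockdown and 212 to 232 in controls in A375, and 789.7 to 1098 after knockdown and 1774 to 1983 in controls in SKMEL2. In A2058 and A375 these sums mix markers that moved in opposite directions. In A2058 S100B averaged 211 FPKM after knockdown and 69.7 in controls, while DCT averaged 74.7 and 336. In A375 SOX10 averaged 250 FPKM after knockdown and 188 in controls, while MITF averaged 1.64 and 3.54. The part of these markers in the results on transporters was not tested. Markers of fibroblasts, epithelium, blood cells and endothelium summed to at most 18.3 FPKM in any list and library.

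More of the transporter genes fell than rose after SIRT5 knockdown in each line, SLC7A5 and SLC7A1 the most over the lines, and their median change was largest in A375. Each gene was tested with limma on log2(FPKM + 0.5) among all genes with at least 1 FPKM in at least 3 libraries of the fit, with Benjamini-Hochberg adjustment at 0.05, and the knockdown effect is the average of the 2 hairpin arms minus NT. In A2058, 9 of the 10 genes were tested, and 6 fell (SLC7A1, SLC7A5, SLC3A2, SLC7A11, SLC38A1 and SLC43A1) where 34.7% of all genes tested fell, while 1 rose (SLC38A2) where 34.6% of all genes rose. Of these 6, SLC38A1 met the filter only through its control libraries, so its being tested depended on the group where it is high. In A375 all 10 were tested, and 7 fell (SLC7A1, SLC7A5, SLC3A2, SLC1A5, SLC1A4, SLC38A1 and SLC6A9) where 21.7% of all genes fell, while 1 rose (SLC43A1) where 26.2% rose. In SKMEL2 9 were tested, and 7 fell (SLC7A1, SLC7A5, SLC3A2, SLC1A5, SLC1A4, SLC38A1 and SLC43A1) where 32.4% of all genes fell, while 1 rose (SLC38A2) where 32.9% rose. With the spread shared over all 27 libraries, 4 fell and 0 rose in SKMEL2: SLC3A2 (adjusted p = 0.103), SLC1A5 (0.0995), SLC38A1 (0.529) and SLC38A2 (0.288) did not pass. The share of all genes called in SKMEL2 with the shared spread was not taken, so these counts cannot be set against a background. In 1 fit over all 27 libraries, 8 of the 10 fell on average over the lines and 0 rose, where 32% of all genes tested fell and 32% rose. SLC38A2 (adjusted p = 0.849) and SLC43A1 (adjusted p = 0.0501) did not pass there, and SLC43A1 passed without any one of 8 libraries of the 27 and under 6 other settings. The median change of the transporter genes tested was -0.28 in A2058, -0.99 in A375 and -0.21 in SKMEL2, beside -0.01, 0.02 and 0.00 for all genes tested in the same lines. The genes were chosen with earlier results of these data known, so these shares and medians are a description and no test of the list. These are bulk libraries, so fewer cells that express a gene and less of its RNA per cell cannot be told apart.

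**Figure D1:**
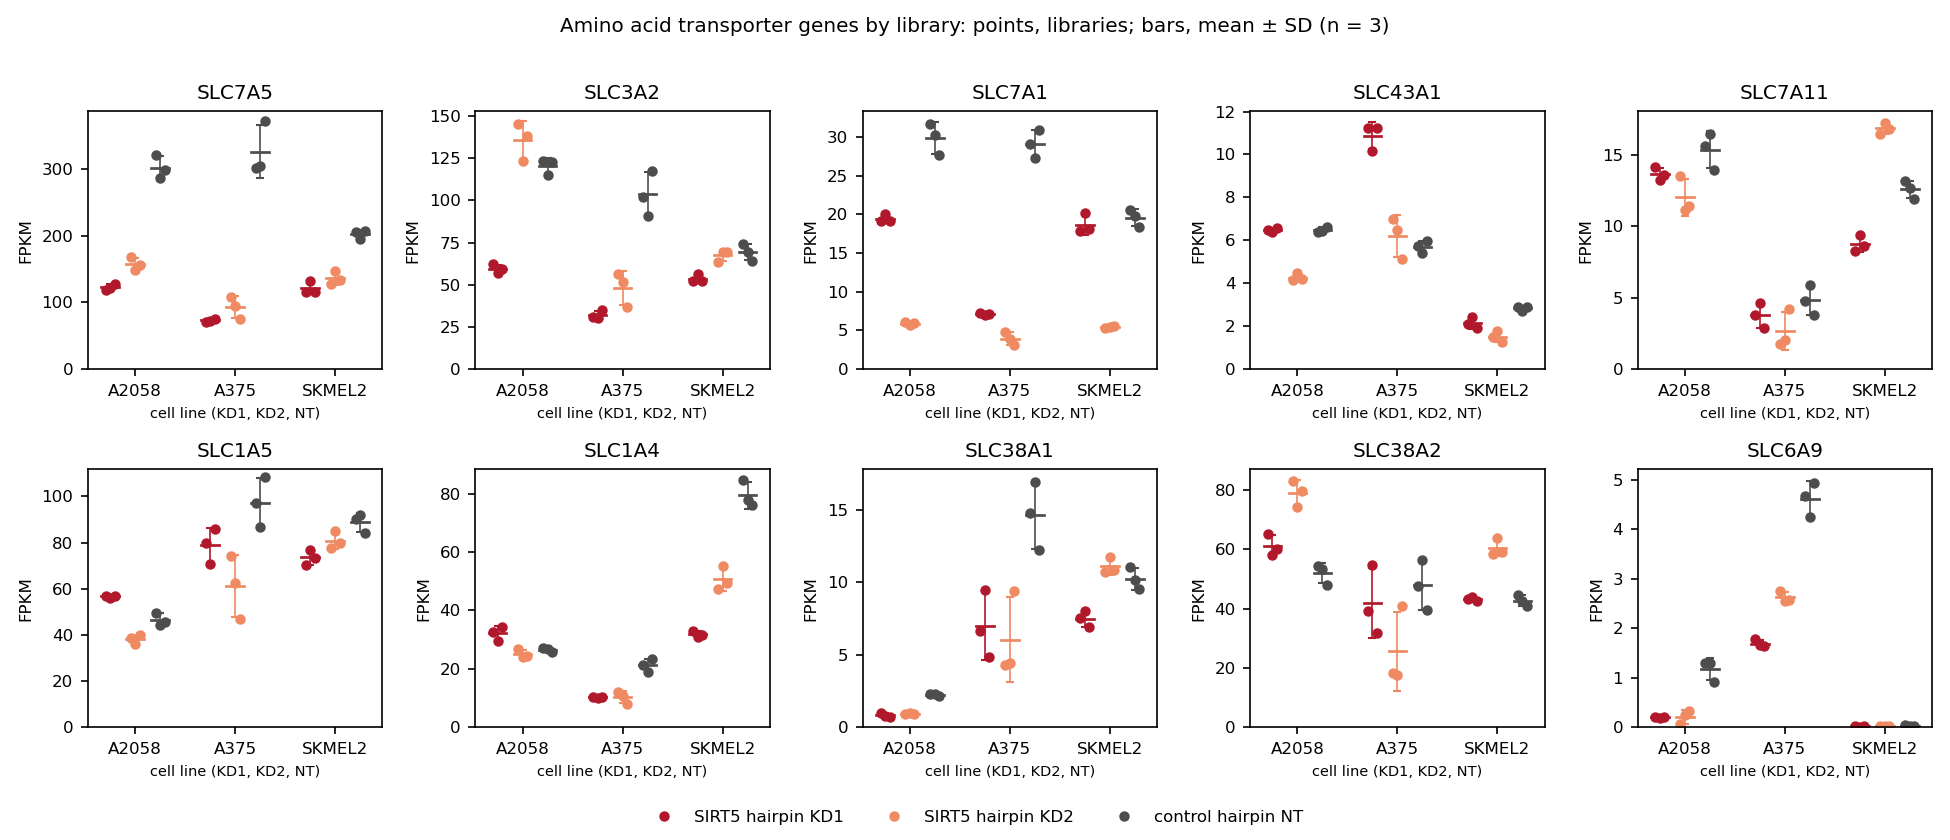
FPKM of each transporter gene in every library, by cell line, with KD1, KD2 and NT from left to right within a line; points are libraries, and bars are the mean ± SD of 3 libraries. Every knockdown library lies below every control library for SLC7A5 in each line, while SLC38A2 is above its controls in A2058 with both hairpins.

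Fewer genes passed with each hairpin alone in the same direction. Both effects are measured against the same 3 control libraries. In A2058, 3 fell with both hairpins (SLC7A1, SLC7A5 and SLC38A1), where 17.7% of all genes did, and 1 rose with both (SLC38A2), where 19.3% of all genes did. SLC38A1 is counted there although it met the filter only through its control libraries. In A375, 6 fell with both (SLC7A1, SLC7A5, SLC3A2, SLC1A4, SLC38A1 and SLC6A9), where 9.38% of all genes did, and 0 rose with both, where 12.9% of all genes did. In SKMEL2, 4 fell with both (SLC7A5, SLC1A5, SLC1A4 and SLC43A1), where 15.9% of all genes did, and 0 rose with both, where 17.5% of all genes did. SLC7A5 is the gene that fell with both hairpins in all 3 lines.

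**Figure D2:**
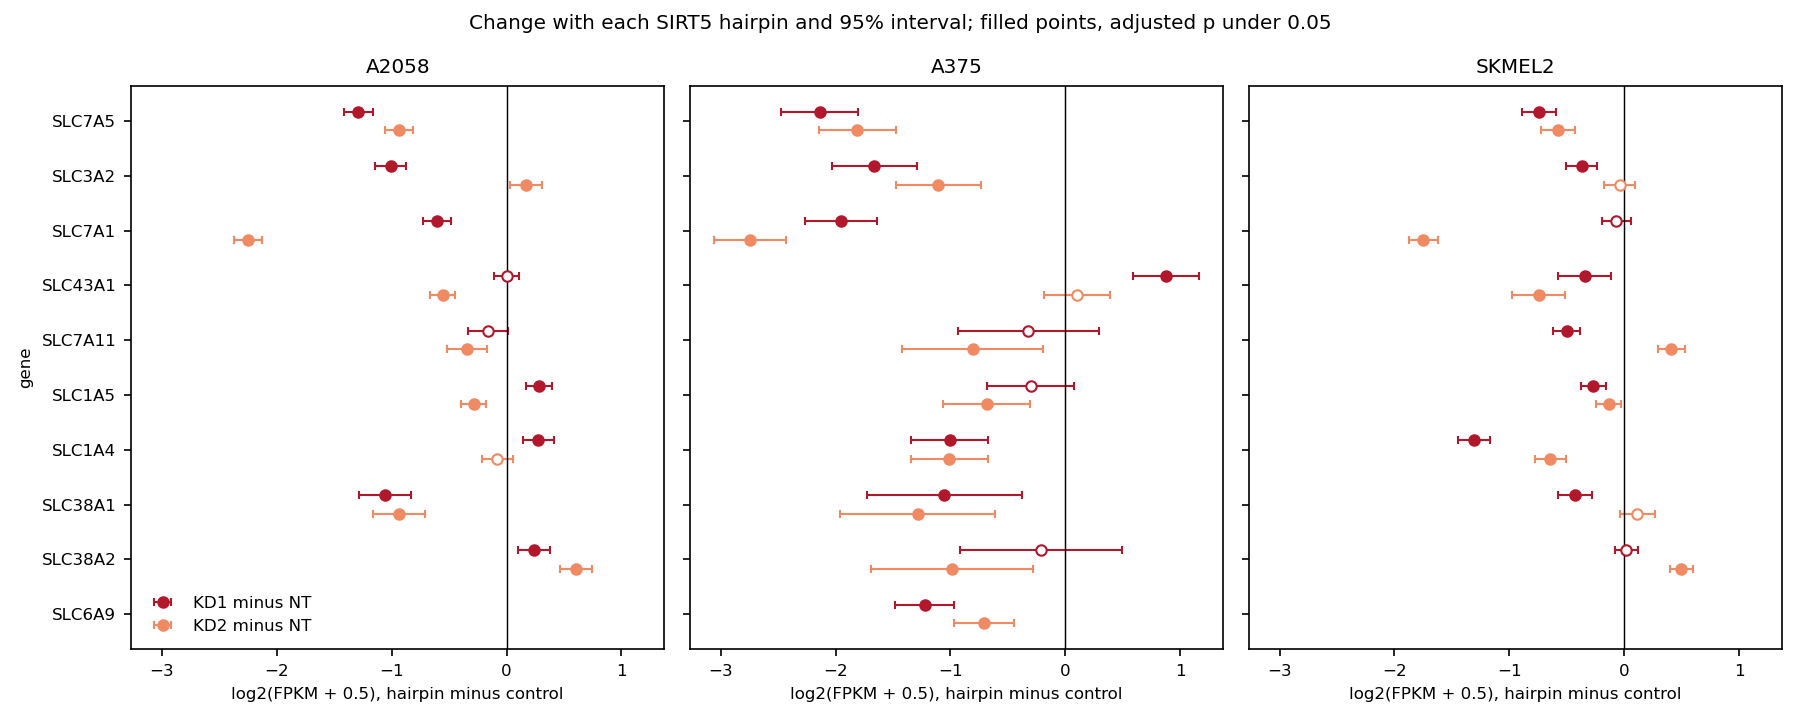
Change of each transporter gene with KD1 and with KD2 against the control arm, on the log2(FPKM + 0.5) scale, with 95% intervals; filled points have an adjusted p under 0.05, and a gene without points was not tested in that line. All 6 points of SLC7A5 lie left of 0, and those of SLC7A1 lie farther left with KD2 than with KD1 in each line.

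SLC7A5 (ENSG00000103257, chr16:87830023-87869507, minus strand) had the highest level of the 10 genes in the control cells of each line. In A2058 it had 119, 122 and 128 FPKM with KD1 and 168, 149 and 156 FPKM with KD2, against 320.1, 287 and 299 FPKM in NT. In A375 it had 71.2, 72.8 and 75.5 FPKM with KD1 and 109, 94.9 and 75.0 FPKM with KD2, against 301, 304 and 371 FPKM in NT. In SKMEL2 it had 116, 133 and 116 FPKM with KD1 and 127, 147 and 133 FPKM with KD2, against 206, 195 and 207 FPKM in NT. No knockdown library reached the lowest control library of its line. The knockdown effect was -1.11 ± 0.048 (SE; A2058, adjusted p = 1.98e-08), -1.98 ± 0.130 (A375, adjusted p = 7.92e-06) and -0.66 ± 0.057 (SKMEL2, adjusted p = 7.88e-06). A375 kept 22.5% of its control mean with KD1 and 28.5% with KD2. The effect differed between each pair of lines in the fit over all libraries: A375 minus A2058 was -0.86 (adjusted p = 1.06e-05), SKMEL2 minus A2058 was 0.45 (adjusted p = 0.00903) and SKMEL2 minus A375 was 1.32 (adjusted p = 4.8e-08). KD1 was below KD2 in A2058 (KD1 minus KD2 -0.35, adjusted p = 0.000171). The same difference did not pass in A375 (-0.33, adjusted p = 0.115), though it did without KD2 replicate 3 (-0.47, adjusted p = 0.0102), nor in SKMEL2 (-0.16, adjusted p = 0.0541), where it passed without KD1 replicate 2 (adjusted p = 0.0103) or KD2 replicate 1 (adjusted p = 0.0273), under 4 other settings (adjusted p = 0.0318 to 0.0493) and with the GC and length trend removed (-0.29, adjusted p = 0.000705). The pseudogene copy SLC7A5P1, also on chromosome 16, had arm means of 0.276 to 3.83 FPKM, and how reads that fit both copies were counted is not stated in the sources.

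SLC3A2 (ENSG00000168003, chr11:62856004-62888880, plus strand), the heavy chain, followed SLC7A5 with KD1 but not with KD2 outside A375. In A2058 it had 62.1, 57.2 and 59.3 FPKM with KD1, below all controls, and 145, 123 and 138 FPKM with KD2, against 124, 115 and 122 FPKM in NT. The KD1 effect there was -1.01 ± 0.061 (adjusted p = 1.63e-07) and the KD2 effect 0.17 ± 0.061 (adjusted p = 0.0285), a rise that did not pass without the filter on low values (adjusted p = 0.0592), without the variance trend (adjusted p = 0.0547), after quantile normalization (0.07, adjusted p = 0.255), or without NT replicate 2 or KD2 replicate 1 or 3 (adjusted p = 0.0801 to 0.117). In A375 the values were 31.1, 30.6 and 34.8 FPKM with KD1 and 56.4, 51.4 and 37.0 FPKM with KD2, against 102, 90.7 and 118 FPKM in NT, with no overlap between knockdown and control. The effect there was -1.67 ± 0.166 with KD1 (adjusted p = 4.4e-05) and -1.11 ± 0.166 with KD2 (adjusted p = 0.000944). In SKMEL2 it had 52.0, 56.3 and 52.1 FPKM with KD1 and 63.3, 69.6 and 69.2 FPKM with KD2, against 74.1, 69.7 and 64.2 FPKM in NT. KD1 lay below the controls (-0.37 ± 0.059, adjusted p = 0.000363), and KD2 overlapped them (-0.04 with a 95% interval of -0.17 to 0.09, adjusted p = 0.579). KD1 minus KD2 was -1.18 (A2058, adjusted p = 4.25e-08), -0.56 (A375, adjusted p = 0.0239) and -0.33 (SKMEL2, adjusted p = 0.000749). The A375 value did not pass without replicate 1 or 2 of either hairpin (adjusted p = 0.0730 to 0.0844).

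Because both chains are needed for the LAT1 dimer, the ratio of their FPKM values was also taken, a measure added after the values were seen and computed per length, so that the 2 genes can be set side by side. In A2058 the ratio of SLC7A5 to SLC3A2 averaged 2.07 ± 0.138 with KD1 and 1.16 ± 0.043 with KD2, against 2.51 ± 0.078 in NT (SD, 3 libraries each). In A375 it averaged 2.28 ± 0.109 with KD1 and 1.94 ± 0.091 with KD2, against 3.15 ± 0.200 in NT. In SKMEL2 it averaged 2.27 ± 0.072 with KD1 and 2.02 ± 0.095 with KD2, against 2.94 ± 0.251 in NT. Every knockdown library had a lower ratio than every control library of its line. The ratio is given as a description, with no test, since it was taken after this separation was seen. The ratio of SLC7A11 to SLC3A2 did not separate knockdown from control in this way. In A2058 it averaged 0.230 with KD1 and 0.0887 with KD2, against 0.128 in NT, so the 2 hairpins lay on opposite sides of the controls. In SKMEL2 the sides were the reverse, with 0.164 for KD1 and 0.251 for KD2, against 0.182 in NT, again with no overlap. The A375 averages were 0.119 with KD1 and 0.0616 with KD2, against 0.0482 in NT. There KD1 lay above all controls and KD2 overlapped them.

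**Figure D3:**
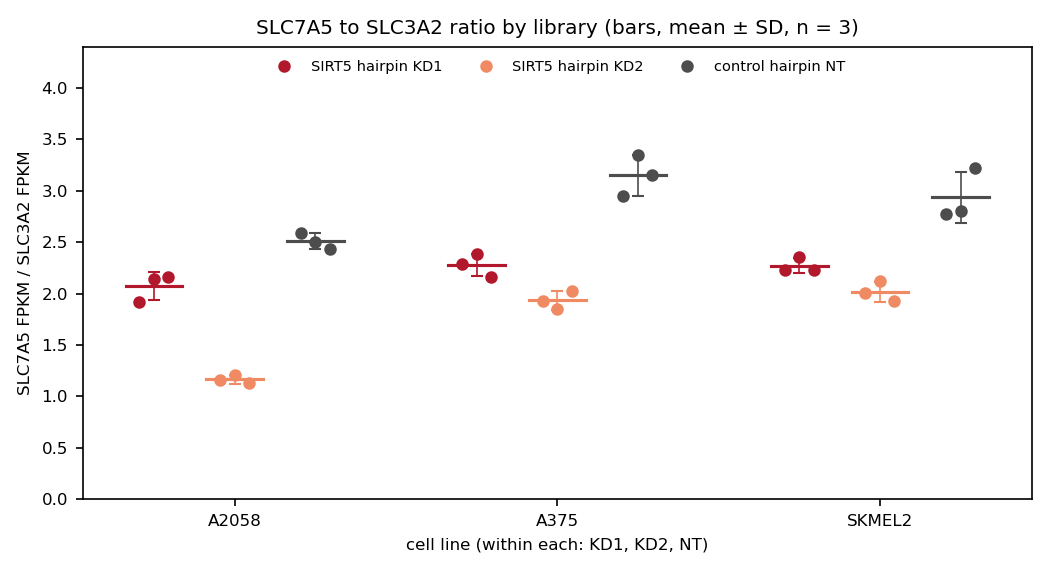
Ratio of SLC7A5 FPKM to SLC3A2 FPKM in every library, with KD1, KD2 and NT from left to right within each line and the mean ± SD of 3 libraries. The knockdown arms average 1.16 to 2.28 and the control arms 2.51 to 3.15, and within each line no knockdown library overlaps the controls.

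SLC7A1 (ENSG00000139514, chr13:29509414-29595688, minus strand), the arginine and lysine carrier, fell most with KD2. SLC7A1 in A2058 had 19.1, 20.1 and 19.2 FPKM with KD1 and 6.04, 5.68 and 5.91 FPKM with KD2, against 31.7, 30.3 and 27.7 FPKM in NT. SLC7A1 in A375 had 7.28, 7.01 and 7.16 FPKM with KD1 and 4.803, 3.94 and 3.13 FPKM with KD2, against 29.1, 27.3 and 30.9 FPKM in NT. SLC7A1 in SKMEL2 had 17.8, 20.1 and 18.1 FPKM with KD1 and 5.38, 5.51 and 5.53 FPKM with KD2, against 20.5, 19.8 and 18.4 FPKM in NT. The KD2 libraries lay below all others in each line, and in SKMEL2 the KD1 libraries overlapped the controls. With KD2 it was at 19.7% of the control mean in A2058, 13.6% in A375 and 27.9% in SKMEL2 (log2 changes of -2.25, -2.75 and -1.75, adjusted p at most 4.01e-06). The KD1 change was -0.60 ± 0.054 (A2058, adjusted p = 3.01e-06), -1.95 ± 0.140 (A375, adjusted p = 6.87e-06) and -0.07 in SKMEL2, with a 95% interval of -0.19 to 0.06 (adjusted p = 0.297). KD1 minus KD2 was 1.65 (A2058, adjusted p = 2.3e-09), 0.80 (A375, adjusted p = 0.0016) and 1.68 (SKMEL2, adjusted p = 1.5e-08), so the 2 hairpins differed in each line. SIRT5 ran the other way: every KD1 library had less of it than every KD2 library of its line. In A375 this rests on 1 to 8 reads per library with KD1 and 7 to 15 with KD2. The SIRT5 difference there, KD1 minus KD2 -0.25, did not pass in the A375 fit (adjusted p = 0.271). It passed in the fit over all libraries (adjusted p = 0.0265).

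Promoter stretches of 4 of the 5 genes with the largest mean falls over the lines are shown because each holds a match to at least 1 of 3 motifs, in capitals. The motifs are TGATGNAA (the core bound by C/EBP and ATF factor pairs), CACGTG (E-box) and TGACNNNGC (antioxidant response element core), sought on both strands from 250 bases before to 50 after the RefSeq start (GRCh38.p14). The other gene of those 5, SLC6A9, held none. The stretches are written 5′ to 3′ on the gene's strand, with at most 30 transcribed bases in a run. SLC7A1 (chr13:29595659-29595938, minus strand), SLC7A5 (chr16:87869478-87869757, minus strand), SLC3A2 before its start (chr11:62881449-62881698, plus strand), SLC3A2 after its start (chr11:62881719-62881748, plus strand) and SLC38A1 (chr12:46266487-46266766, minus strand) read as follows.
SLC7A1: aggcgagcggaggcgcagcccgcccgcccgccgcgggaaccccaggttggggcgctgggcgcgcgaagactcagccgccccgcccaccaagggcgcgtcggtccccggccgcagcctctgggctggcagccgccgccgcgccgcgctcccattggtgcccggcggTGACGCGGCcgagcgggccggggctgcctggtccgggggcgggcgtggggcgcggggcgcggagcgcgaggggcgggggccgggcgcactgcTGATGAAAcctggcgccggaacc
SLC7A5: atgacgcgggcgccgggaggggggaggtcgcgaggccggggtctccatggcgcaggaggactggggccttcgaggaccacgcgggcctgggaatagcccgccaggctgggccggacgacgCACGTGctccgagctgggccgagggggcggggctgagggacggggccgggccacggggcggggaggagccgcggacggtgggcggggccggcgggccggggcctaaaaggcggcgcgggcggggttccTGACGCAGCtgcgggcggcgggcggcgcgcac
SLC3A2, before the start: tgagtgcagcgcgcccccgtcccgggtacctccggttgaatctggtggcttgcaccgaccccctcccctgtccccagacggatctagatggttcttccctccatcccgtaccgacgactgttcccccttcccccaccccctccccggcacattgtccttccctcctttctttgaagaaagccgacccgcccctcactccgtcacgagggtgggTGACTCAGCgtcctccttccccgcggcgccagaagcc
SLC3A2, after the start: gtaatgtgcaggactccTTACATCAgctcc
SLC38A1: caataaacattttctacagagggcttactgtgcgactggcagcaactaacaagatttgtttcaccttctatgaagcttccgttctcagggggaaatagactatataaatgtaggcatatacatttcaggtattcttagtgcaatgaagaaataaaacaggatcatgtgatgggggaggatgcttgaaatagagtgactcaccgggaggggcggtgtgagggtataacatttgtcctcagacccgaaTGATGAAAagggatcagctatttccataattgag
TGATGNAA was found in SLC7A1, SLC3A2 (on the other strand, as TTACATCA) and SLC38A1, which is 3 of the 9 genes with an entry, and in 3.67% of 27305 promoters of the same length. TGACNNNGC was found in SLC7A1, SLC7A5 and SLC3A2, again 3 of 9, and in 13.6% of all promoters. CACGTG was found in SLC7A5 and SLC43A1, 2 of 9, and in 7.43% of all promoters. SLC1A5, SLC1A4 and SLC38A2 held none, and SLC7A11 was not searched. For SLC3A2 and SLC38A1 the RefSeq start lies inside the GENCODE gene, which has longer transcripts. A match is a run of letters and no measured binding.

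SLC43A1 (ENSG00000149150, chr11:57484534-57515780, minus strand), the facilitated carrier of large neutral amino acids, moved in different directions by line and hairpin. SLC43A1 in A2058 had 6.49, 6.41 and 6.58 FPKM with KD1 and 4.14, 4.46 and 4.18 FPKM with KD2, against 6.41, 6.42 and 6.63 FPKM in NT. SLC43A1 in A375 had 11.2, 10.2 and 11.2 FPKM with KD1 and 6.998, 6.50 and 5.13 FPKM with KD2, against 5.72, 5.42 and 5.96 FPKM in NT. SLC43A1 in SKMEL2 had 2.10, 2.42 and 1.91 FPKM with KD1 and 1.48, 1.78 and 1.27 FPKM with KD2, against 2.91, 2.71 and 2.91 FPKM in NT. It was above all A375 controls with KD1 (0.88 ± 0.129, adjusted p = 0.000445), overlapped them with KD2, and lay below all SKMEL2 controls with both. The SKMEL2 change with KD1, -0.34 ± 0.102 (adjusted p = 0.0137), did not pass without KD1 replicate 3 (adjusted p = 0.0533). KD1 values exceeded KD2 values in each line, by 0.56 (A2058, adjusted p = 2.24e-06), 0.77 (A375, adjusted p = 0.00117) and 0.40 (SKMEL2, adjusted p = 0.00612). The A375 effect minus the A2058 effect was 0.77 (adjusted p = 2.02e-05), and SKMEL2 minus A375 was -1.03 (adjusted p = 5.54e-07).

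SLC7A11 (ENSG00000151012, chr4:138164097-138242349, minus strand), the cystine carrier, was lower with one hairpin and higher with the other in SKMEL2. It had 8.29, 9.37 and 8.59 FPKM with KD1 and 16.5, 17.3 and 16.8 FPKM with KD2, against 13.1, 12.7 and 11.9 FPKM in NT there. KD1 lay below and KD2 above all controls (-0.50 ± 0.052, adjusted p = 2.03e-05, and 0.41 ± 0.052, adjusted p = 9.49e-05), so their mean of -0.05 did not pass (adjusted p = 0.397). In the fit over all libraries the KD1 fall in SKMEL2 passed (adjusted p = 0.0337) and the KD2 rise did not (adjusted p = 0.0888). SLC7A11 in A2058 had 14.1, 13.3 and 13.6 FPKM with KD1 and 13.5, 11.1 and 11.5 FPKM with KD2, against 15.6, 16.5 and 13.9 FPKM in NT. KD2 lay below all controls and KD1 overlapped them, and the effect over both was -0.25 ± 0.068 (adjusted p = 0.00736), which did not pass in the fit over all libraries (adjusted p = 0.218). Its KD1 change in A2058 of -0.16 (adjusted p = 0.0921) passed without NT replicate 3 (-0.23, adjusted p = 0.0295) or KD2 replicate 1 (adjusted p = 0.0436), after other scalings (-0.30 and -0.21) and in limma-voom on recovered reads (-0.18, adjusted p = 0.00562). SLC7A11 in A375 had 3.79, 4.65 and 2.90 FPKM with KD1 and 1.78, 2.06 and 4.19 FPKM with KD2, against 4.79, 5.90 and 3.82 FPKM in NT, and all arms overlapped. The A375 effect of -0.56 ± 0.238 did not pass (adjusted p = 0.0747), except in limma-voom on recovered reads (-0.64, adjusted p = 0.0484) and in the fit over all libraries (adjusted p = 0.00497). Without KD2 replicate 3 it was -0.72 (adjusted p = 0.00317), and with the GC and length trend of each library removed it was -0.07 (adjusted p = 0.399). Its KD2 change in A375, -0.81 (adjusted p = 0.0385), did not pass without any one of NT replicates 1 and 2, KD1 replicate 1 and KD2 replicates 1 and 2 (adjusted p = 0.0558 to 0.134), or with that trend removed (-0.12, adjusted p = 0.245). Its transcript has the lowest GC content of the 10, 35.4%, beside a median of 47.7% over the genes tested. The antisense gene SLC7A11-AS1 reached an arm mean of at most 0.692 FPKM, and the sources do not state whether counting used the strand.

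The neutral amino acid exchangers SLC1A5 (ENSG00000105281, chr19:46774883-46788594, minus strand) and SLC1A4 (ENSG00000115902, chr2:64988477-65023865, plus strand) both rose with KD1 in A2058 and fell in the average of the hairpins in the other lines. SLC1A5 in A2058 had 57.0, 56.0 and 56.9 FPKM with KD1 and 38.4, 36.0 and 39.7 FPKM with KD2, against 49.6, 44.4 and 45.7 FPKM in NT. KD1 lay above and KD2 below all controls (0.28 ± 0.050, adjusted p = 0.00051, and -0.29 ± 0.050, adjusted p = 0.000461), and their mean was 0.00 with a 95% interval of -0.10 to 0.09. After quantile normalization the KD1 rise did not pass (0.07, adjusted p = 0.155), and with the GC and length trend removed the KD2 fall did not (-0.06, adjusted p = 0.236). SLC1A5 in A375 had 79.6, 70.8 and 85.7 FPKM with KD1 and 74.0, 62.4 and 47.0 FPKM with KD2, against 96.98, 86.8 and 108 FPKM in NT. All knockdown libraries lay below all controls. The effect of -0.49 ± 0.146 passed (adjusted p = 0.0193) and was -0.73 with the GC and length trend removed, but it did not without control replicate 1 (adjusted p = 0.0644) or control replicate 3 (adjusted p = 0.0813). By hairpin, the KD2 change passed (-0.69, adjusted p = 0.0102) and the KD1 change did not (-0.30, adjusted p = 0.167). That KD1 change passed after quantile normalization (-0.66) and with the GC and length trend removed (-0.57). SLC1A5 in SKMEL2 had 70.4, 77.0 and 73.3 FPKM with KD1 and 77.8, 84.9 and 79.8 FPKM with KD2, against 90.1, 91.8 and 84.2 FPKM in NT. KD1 lay below the controls, and 1 KD2 library overlapped them. The effect there was -0.20 ± 0.043 (adjusted p = 0.00224; 0.0995 in the fit over all libraries), with a KD2 change of -0.13 (adjusted p = 0.0369) that did not pass without the filter on low values (adjusted p = 0.0553), without the variance trend (adjusted p = 0.0632) or with the GC and length trend removed (-0.02, adjusted p = 0.786). That KD2 change also did not pass without NT replicate 1 or 2, KD1 replicate 3 or KD2 replicate 1 or 3 (adjusted p = 0.0518 to 0.123).

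SLC1A4 had its highest level in SKMEL2 and its largest fall there with KD1. In SKMEL2 it had 33.0, 30.9 and 31.6 FPKM with KD1 and 47.5, 55.4 and 49.5 FPKM with KD2, against 84.7, 77.8 and 76.0 FPKM in NT. The 3 arms did not overlap, with changes of -1.31 ± 0.061 for KD1 (adjusted p = 1.44e-07) and -0.64 ± 0.061 for KD2 (adjusted p = 1.47e-05). In A375 it had 10.5, 9.98 and 10.2 FPKM with KD1 and 12.2, 10.7 and 8.07 FPKM with KD2, against 21.3, 18.9 and 23.2 FPKM in NT. Both arms lay below the controls at 48.4% (KD1) and 48.9% (KD2) of the control mean, and their difference was 0.01 with a 95% interval of -0.33 to 0.34. In A2058 it had 32.7, 29.7 and 34.4 FPKM with KD1 and 26.8, 24.0 and 24.5 FPKM with KD2, against 27.0, 26.7 and 25.9 FPKM in NT. KD1 was above the controls (0.28 ± 0.060, adjusted p = 0.00187) and KD2 overlapped them. The KD1 rise did not pass after quantile normalization (0.08, adjusted p = 0.21), and the effect over both hairpins, 0.10 (adjusted p = 0.117), passed without KD1 replicate 2 (0.13, adjusted p = 0.0308). LINC02245, on the opposite strand, had arm means of 0.166 to 0.596 FPKM. The effect in A2058 differed from that in A375 (A375 minus A2058 -1.11, adjusted p = 4.98e-07) and from that in SKMEL2 (SKMEL2 minus A2058 -1.07, adjusted p = 1.54e-06).

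The sodium-coupled carriers SLC38A1 (ENSG00000111371, chr12:46183063-46270017, minus strand) and SLC38A2 (ENSG00000134294, chr12:46358188-46372773, minus strand) differed in direction in A2058, where the first fell and the second rose. SLC38A1 in A2058 had 0.963, 0.774 and 0.718 FPKM with KD1 and 0.912, 0.939 and 0.934 FPKM with KD2, against 2.28, 2.29 and 2.13 FPKM in NT. The arms did not overlap the controls (effect -0.996 ± 0.088), and the pseudocount makes this an understatement of a fall to 36.6% (KD1) and 41.5% (KD2) of the control mean. Every knockdown value there was below 1 FPKM, so SLC38A1 met the filter of the A2058 fit only through its controls. Its adjusted p in that fit (2.83e-06) therefore gives no support of its own. In the fit over all libraries, where the other lines also meet the filter, the adjusted p for A2058 was 8.24e-05. SLC38A1 in A375 had 6.65, 9.44 and 4.81 FPKM with KD1 and 4.28, 4.41 and 9.41 FPKM with KD2, against 14.8, 16.9 and 12.2 FPKM in NT, again with no overlap (effect -1.17 ± 0.262, adjusted p = 0.00528). The KD1 change there, -1.05 (adjusted p = 0.0165), did not pass without NT replicate 2 (adjusted p = 0.0601) or KD1 replicate 3 (adjusted p = 0.0663). SLC38A1 in SKMEL2 had 7.51, 8.02 and 6.92 FPKM with KD1 and 10.7, 11.8 and 10.8 FPKM with KD2, against 11.0, 10.1 and 9.54 FPKM in NT. Only KD1 lay below the controls there (-0.43 ± 0.067, adjusted p = 0.000331). The SKMEL2 effect over both hairpins, -0.16 ± 0.058 (adjusted p = 0.0379), did not pass without the filter on low values or the variance trend (adjusted p = 0.0577 and 0.0514), without control replicate 1 or 2 (adjusted p = 0.173 and 0.0779), or without replicate 1 or 3 of either hairpin (adjusted p = 0.0561 to 0.0715).

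SLC38A2, whose RNA is known to rise when amino acids are scarce, rose in the fits of A2058 and SKMEL2. With the spread shared over all libraries the rise passed in neither (adjusted p = 0.0663 in A2058 and 0.288 in SKMEL2). SLC38A2 was higher with KD2 than with KD1 in both line fits (KD1 minus KD2 -0.37, adjusted p = 0.00033, and -0.48, adjusted p = 8.49e-06). With the shared spread this hairpin difference also passed in neither (adjusted p = 0.158 in A2058 and 0.0730 in SKMEL2). SLC38A2 in A2058 had 65.2, 58.0 and 60.3 FPKM with KD1 and 83.2, 74.3 and 79.8 FPKM with KD2, against 54.4, 53.3 and 48.0 FPKM in NT. All knockdown libraries lay above all controls, with changes of 0.24 ± 0.062 for KD1 (adjusted p = 0.00624) and 0.60 ± 0.062 for KD2 (adjusted p = 9.37e-06). The KD1 rise did not pass after quantile normalization (0.04, adjusted p = 0.615) or with the GC and length trend removed (0.14, adjusted p = 0.05001). SLC38A2 in SKMEL2 had 43.2, 44.1 and 42.5 FPKM with KD1 and 58.6, 63.8 and 59.3 FPKM with KD2, against 44.7, 42.7 and 40.8 FPKM in NT. KD2 lay above the controls (0.50 ± 0.044, adjusted p = 9.7e-06), while KD1 overlapped them (0.02, 95% interval -0.08 to 0.12). SLC38A2 in A375 had 39.3, 54.7 and 31.7 FPKM with KD1 and 18.2, 17.6 and 41.0 FPKM with KD2, against 47.5, 56.5 and 39.7 FPKM in NT. The A375 effect of -0.60 ± 0.273 did not pass (adjusted p = 0.0939), except after quantile normalization (-0.84, adjusted p = 0.0475) and in the fit over all libraries (adjusted p = 0.00823). The KD2 change there, -0.99 (adjusted p = 0.0299), did not pass without NT replicate 1 or 2 or KD2 replicate 1 or 2 (adjusted p = 0.0746 to 0.112). Without KD2 replicate 3 the effect over both hairpins was -0.80 (adjusted p = 0.00218), and with the GC and length trend removed -0.21 (adjusted p = 0.154). In A375, SLC7A11, SLC38A1 and SLC38A2 were each highest within their arm in KD1 replicate 2, KD2 replicate 3 and control replicate 2, the 3 libraries whose deviations correlated with GC content most negatively (r across genes of -0.56, -0.65 and -0.40). Their transcripts have GC contents of 35.4%, 41.3% and 37.4%. With the GC and length trend removed, the SLC38A1 effect in A375 was -0.82 (adjusted p = 0.000725). Other transporter genes went the opposite way in KD2 replicate 3 of A375. There SLC7A5 (GC content 61.2%), SLC1A5 (61.3%), SLC43A1 (58.0%), SLC3A2 (53.8%), SLC7A1 (52.7%) and SLC1A4 (46.5%) were each lowest within KD2. SLC6A9 (60.0%) was not.

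SLC6A9 (ENSG00000196517, chr1:43991500-44031467, minus strand), the glycine carrier, was expressed at a low level in 2 of the 3 lines. In A375 it had 1.78, 1.65 and 1.63 FPKM with KD1 and 2.76, 2.55 and 2.57 FPKM with KD2, against 4.68, 4.25 and 4.94 FPKM in NT. The arms did not overlap, and the effect was -0.97 ± 0.101 (adjusted p = 9.14e-05), with KD1 below KD2 by 0.51 log2 units (KD1 minus KD2 -0.51, adjusted p = 0.00614). In A2058 it had 0.199, 0.190 and 0.195 FPKM with KD1 and 0.0552, 0.237 and 0.333 FPKM with KD2, against 1.302, 1.3003 and 0.919 FPKM in NT. These values rest on 10 to 61 reads per knockdown library and 156 to 311 reads per control library, and the gene missed the filter for the A2058 fit. In SKMEL2 it had 0 to 7 reads per library with either hairpin and 4 to 7 reads in NT, so no difference was detectable at this depth, and its mean change over the 3 lines is diluted by this line. CCDC24, which overlaps it on the opposite strand, had arm means of 1.27 to 5.25 FPKM.

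The 2 hairpins differed from each other for 7 of 9 genes in A2058, where 72.3% of all genes tested did, for 4 of 10 in A375, where 38.1% did, and for 8 of 9 in SKMEL2, where 68.5% did. Those 4 in A375 were SLC7A1, SLC3A2, SLC43A1 and SLC6A9, and 7 passed without KD2 replicate 3, with SLC7A5, SLC7A11 and SLC38A2 added. The share of all genes that differed without that library was not taken, so the 7 cannot be set beside the 38.1%. The knockdown effect differed between lines for 9 of the 10, all but SLC7A11 (adjusted p = 0.135), by the F-test of limma over all libraries, where 61.1% of all genes tested did. The count for SLC6A9 rests on SKMEL2, where the libraries hold at most 7 reads and the pseudocount keeps the change near 0. SKMEL2 minus A375 was 0.94 (adjusted p = 1.03e-05), and by voom on recovered reads 0.45 (adjusted p = 0.640). A375 minus A2058 was 0.29 (adjusted p = 0.0831), and by voom 1.57 (adjusted p = 7.1e-05). Summed over the 10 genes, A2058 libraries held 364 to 379 FPKM with KD1 and 429 to 486 FPKM with KD2, against 583 to 632 FPKM in NT. The sums in A375 were 262 to 272 FPKM with KD1 and 232 to 290.0 FPKM with KD2, against 616 to 718 FPKM in NT. The sums in SKMEL2 were 350.0 to 381 FPKM with KD1 and 408 to 457 FPKM with KD2, against 515 to 547 FPKM in NT. No knockdown sum reached a control sum, and SLC7A5 alone made up 50.1%, 49.7% and 38.4% of the control mean sum in A2058, A375 and SKMEL2.

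In control cells, SLC7A5 ranked 62 of 12797 genes tested in A2058 by mean FPKM, 88 of 12629 in A375 and 126 of 13899 in SKMEL2. After it came SLC3A2 (120.3 ± 4.71 FPKM, SD, 3 libraries), SLC38A2 (51.9 ± 3.37), SLC1A5 (46.6 ± 2.72), SLC7A1 (29.9 ± 2.02), SLC1A4 (26.5 ± 0.600), SLC7A11 (15.4 ± 1.29), SLC43A1 (6.49 ± 0.125), SLC38A1 (2.23 ± 0.090) and SLC6A9 (1.17 ± 0.220) in A2058. In that order SLC38A2 and SLC1A5 overlapped. The A375 order was SLC3A2 (104 ± 13.5 FPKM), SLC1A5 (97.3 ± 10.7), SLC38A2 (47.9 ± 8.42), SLC7A1 (29.1 ± 1.80), SLC1A4 (21.1 ± 2.19), SLC38A1 (14.6 ± 2.35), SLC43A1 (5.70 ± 0.269), SLC7A11 (4.84 ± 1.04) and SLC6A9 (4.62 ± 0.349). There SLC3A2 overlapped SLC1A5, and SLC7A11 overlapped its neighbours SLC43A1 and SLC6A9. The SKMEL2 order was SLC1A5 (88.7 ± 3.99 FPKM), SLC1A4 (79.5 ± 4.56), SLC3A2 (69.3 ± 4.92), SLC38A2 (42.7 ± 1.99), SLC7A1 (19.6 ± 1.08), SLC7A11 (12.6 ± 0.607), SLC38A1 (10.2 ± 0.763), SLC43A1 (2.84 ± 0.117) and SLC6A9 (0.0280 ± 0.00702), where SLC1A5 and SLC1A4 overlapped. With KD1 in A375, SLC1A5 (78.7 ± 7.45 FPKM) had the highest mean of the 10, ahead of SLC7A5 (73.2 ± 2.14 FPKM), and their ranges overlapped. Control levels differed between A375 and A2058 for 5 of the 10 genes, where 70.7% of all genes tested did, between SKMEL2 and A2058 for 8, where 69.2% did, and between SKMEL2 and A375 for 8, where 73% did. SLC1A4 was higher in SKMEL2 than in A2058 by 1.56 ± 0.103 (adjusted p = 6.85e-12), SLC38A1 was higher in A375 than in A2058 by 2.46 ± 0.208 (adjusted p = 5.76e-10), and SLC7A11 was lower in A375 than in A2058 (A375 minus A2058 -1.59 ± 0.187, adjusted p = 1.15e-07). Line and library batch cannot be told apart.

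Other genes of amino acid transport and sensing gave calls in both directions. Of 12 genes listed as other surface amino acid transporters and tested over the lines, 7 rose, 4 fell and 1 did not pass. Where in the cell they act was not measured. Their median was 0.21 beside 0.00 for all genes, of which 32% rose and 32% fell in this fit. The other lists below are read against the same shares. Those 12 genes include the glutamate carrier SLC1A1 at 1.01 ± 0.056, SLC6A17 at 0.53 ± 0.051, SLC38A6 at 0.39 ± 0.055 and the glutamate carrier SLC1A3 at -0.41 ± 0.051. SLC1A3 was tested by line in A375 only (-1.06), having missed the filter in A2058 and SKMEL2. Of 10 lysosomal transporters, 6 rose and 2 fell, with the arginine sensor SLC38A9 at 0.60 ± 0.059, the cationic amino acid exporter SLC66A1 at 0.53 ± 0.051, SLC38A7 at 0.24 ± 0.048 and MFSD12 at -0.38 ± 0.047. Of 40 genes of amino acid sensing by mTORC1, 19 rose and 10 fell, the second count below the share over all genes, with the leucine sensor SESN2 at 0.65 ± 0.057, the mTOR inhibitor DEPTOR at 0.66 ± 0.075, SESN3 at -0.83 ± 0.065 and the GATOR2 subunit MIOS at -0.51 ± 0.084. DEPTOR rose in A2058 (0.83) and A375 (1.40) but fell in SKMEL2 (-0.24).

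Genes that control the transporters or use their substrates also split, and the split differed in count between lines. Of 22 regulators of transporter genes, 13 fell and 5 rose, with a median of -0.34: the stress factor ATF3 was at -1.10 ± 0.064, the eIF2 kinase EIF2AK2 at -1.01 ± 0.089, TXNIP at -0.90 ± 0.087 and the NRF2 inhibitor KEAP1 at 0.73 ± 0.043. In A2058 12 of 22 fell and 7 rose (34.7% and 34.6% of all genes), in A375 11 of 21 fell and 1 rose (21.7% and 26.2%), and in SKMEL2 8 of 22 fell and 12 rose (32.4% and 32.9%). The 7 that rose in A2058 and the 8 that fell in SKMEL2 are near those shares. ATF3 fell in A2058 (-0.93) and A375 (-2.58) and rose in SKMEL2 (0.20). Of 13 genes of glutathione and cystine use, 8 fell and 5 rose: the glutathione conjugate exporter ABCC1 was at -0.78 ± 0.040, CHAC1, which degrades glutathione, at -0.79 ± 0.081, GCLM, a subunit of the enzyme that starts glutathione synthesis, at -0.58 ± 0.049 and the lipid peroxide reductase GPX4 at 0.53 ± 0.062. GPX4 was at 0.01 in A2058 (adjusted p = 0.908), 1.29 in A375 and 0.31 in SKMEL2, and GCLM at -1.02 in A2058, -0.82 in A375 and 0.11 in SKMEL2 (adjusted p = 0.181). Of 20 enzymes that make or break down transported amino acids, 9 fell, 4 rose and 7 did not pass. The serine synthesis enzymes PSAT1 and PSPH were at -1.06 ± 0.050 and -0.997 ± 0.054, the glycine cleavage enzyme GLDC at 1.05 ± 0.055 and the arginase ARG2 at 0.90 ± 0.054. CHAC1 fell in A2058 (-0.75) and A375 (-2.13) and rose in SKMEL2 (0.53).

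**Figure D4:**
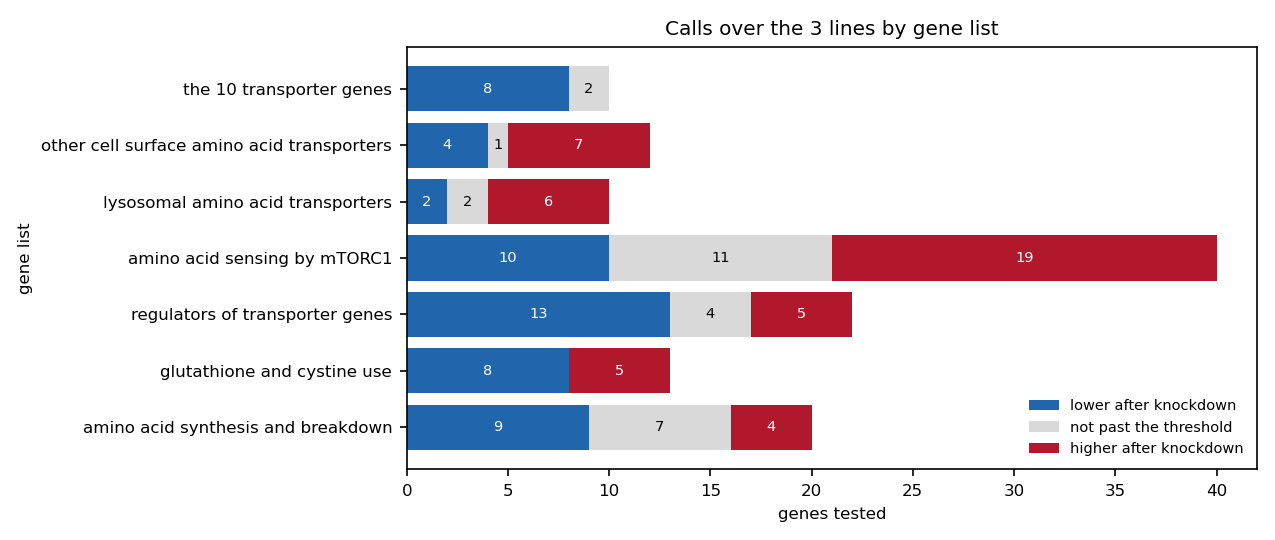
Number of genes tested in each list that were lower, not past the threshold or higher after knockdown over the 3 lines, by limma at an adjusted p under 0.05. Of the 10 transporter genes 8 are lower and 0 higher. Of 12 genes listed as other surface transporters 7 are higher, and of 10 lysosomal transporters 6 are higher. Over all genes tested in this fit, 32% were lower and 32% higher.

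Likeness was described by Pearson's r over the 27 libraries of log2(FPKM + 0.5) minus each line's mean, which share lines and arms and so are not independent. Among 12383 protein-coding genes, SLC7A5 was most like ACTL8 (0.96), SCAF4 (0.96) and ADM2 (0.95), and SLC3A2 most like AVPI1 (0.96), RRP12 (0.94) and EBNA1BP2 (0.93). SLC7A1 was most like TRIP13 (0.98), NDOR1 (0.96) and DUSP12 (0.95), and SLC7A11 most like PDCD4 (0.93), HSP90B1 (0.91) and FAM102B (0.91). Within the 10 genes the highest values were 0.85 for SLC7A5 with SLC3A2 and 0.84 for SLC7A5 with SLC6A9, and the lowest was -0.54 for SLC3A2 with SLC43A1.

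The authors' deposited tables compare knockdown with control and give no value per hairpin. In the authors' deposited table for A2058, 4 of the 10 genes fell and 1 rose at an adjusted p under 0.05. In the authors' deposited table for A375 6 fell, and in that for SKMEL2 4 fell. The share of all genes called in those tables was not taken, so these counts cannot be set against a background. SLC7A5 had log2 fold changes of -1.10 in A2058, -1.97 in A375 and -0.68 in SKMEL2 in the authors' deposited tables. SLC7A1 had -0.72 in SKMEL2 with an adjusted p of 0.266 in the authors' deposited table, where the present fit, with an arm for each hairpin, gave -0.91 ± 0.048 (adjusted p = 3.95e-07).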

How the data were processed

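RNA of 27 libraries was analysed. The authors deposited FPKM values per gene, and 4 tables with log2 fold changes, p-values and adjusted p-values from DESeq2 1.28.1, in which the base mean is a normalised signal. Per the submitters' processing notes the tools also included Trimmomatic 0.39, STAR 2.7.3a and featureCounts of Subread 2.0.0, on GRCh38; the sources do not give trimming, strand or length settings. Reads recovered from the deposited FPKM and base mean were whole for 100.0% of values above 0 (tolerance 0.05) and gave the depths; more reads give a gene a smaller counting error. Knockdown columns were assigned to line and arm by their names.

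limma 3.58.1 in R 4.3.3 tested log2(FPKM + 0.5) with a variance trend, for each line (9 libraries, 3 arms) and for all 27, with genes at 1 FPKM or more in 3 or more libraries; such changes understate those of low genes. All 10 genes are named, and up to 4 genes of largest change from each other list. The genes and lists were chosen with earlier results of these data known. Same-numbered libraries were checked for pairing. Only 2 of 27 such pairs, both in A375, had a correlation over 0.1, so no block was used. Some A375 libraries with different numbers also deviated together across arms, and the fits do not model this. Alternatives were other pseudocounts, filters, normalizations, voom on recovered reads and leaving out each library; removal of GC and length trends was added after seeing the data. The scripts were tested on simulated data. One item is not reported here.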

Additional observations from a re-analysis of the deposited data

Results flagged for a closer look

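The change after knockdown differed between the 3 lines for 9 transporter genes, by limma's F-test over all 27 libraries with adjustment over all genes tested, where 61.1% of all genes tested did. The adjusted p was 5.7e-09 for SLC7A1, with effects of -1.43 in A2058, -2.35 in A375 and -0.91 in SKMEL2. It was 8.9e-08 for SLC7A5 (-1.11, -1.98 and -0.66 in the same order of lines), 8.9e-07 for SLC3A2 (-0.42, -1.39 and -0.21) and 2.3e-07 for SLC1A4 (0.10, -1.01 and -0.97). It was 0.012 for SLC1A5 (0.00, -0.49 and -0.20), 0.0037 for SLC38A1 (-0.996, -1.17 and -0.16) and 0.0042 for SLC38A2 (0.42, -0.60 and 0.26). It was 7.5e-07 for SLC43A1 (-0.28, 0.49 and -0.54), and 4.2e-07 for SLC6A9. The value for SLC6A9 rests on SKMEL2, whose libraries hold 0 to 7 reads, so that the pseudocount keeps the change there near 0. By voom on recovered reads SKMEL2 minus A375 did not pass (0.45, adjusted p = 0.640), while A375 minus A2058 did (1.57, adjusted p = 7.1e-05). With 3 libraries per arm, single libraries were not tested for standing apart.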

How the results depend on the processing

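Most same-numbered libraries did not deviate together: 2 of 9 such pairs in A375 had a correlation over 0.1 (0.401 and 0.433), and 0 of 9 did in each other line (correlations of -0.0651 to 0.0602 in A2058, -0.624 to 0.433 in A375 and -0.0629 to 0.0634 in SKMEL2). By this measure the numbers do not pair the samples. Some A375 libraries with different numbers did deviate together across arms. The correlation was 0.643 for KD1 replicate 2 with KD2 replicate 3, and 0.493 for NT replicate 2 with KD2 replicate 3. The fits treat the libraries as independent and do not model this. With replicate number as a block, 175 of the results kept their call, 2 passed anew and 5 no longer did, among them the KD2 changes of SLC7A11 (-0.81, adjusted p = 0.0686) and SLC38A2 (-0.99, adjusted p = 0.0560) and the hairpin difference of SLC3A2 (-0.56, adjusted p = 0.0578), all in A375. The share of all genes called was not taken under the settings that follow. Their counts of transporter genes therefore cannot be set against a background or read as particular to these genes. After quantile normalization, 0 genes in place of 1 rose with both hairpins in A2058, 8 in place of 5 differed in control level between A375 and A2058, and SLC7A5 turned to -0.41 in that comparison of controls. With the length and GC trend removed, 2 genes rose in A2058, 0 rose there with both hairpins, 7 differed between hairpins in A375, 10 differed in control level between A375 and A2058, and 1 rose over the 3 lines (SLC38A2, 0.13). The same setting turned SLC1A5 to 0.12 in A2058, the control comparison of A375 with A2058 to -0.34 for SLC7A5 and 0.36 for SLC38A2, and that of SKMEL2 with A375 to 0.35 for SLC1A5; the cause was not tested. With the spread shared over all 27 libraries, 4 genes in place of 7 fell in SKMEL2 (SLC3A2, SLC1A5 and SLC38A1 did not pass), 0 rose there and 0 rose in A2058 (SLC38A2 did not pass in either); SLC7A11 did not pass in A2058 (adjusted p = 0.218). SLC43A1 over the 3 lines (adjusted p = 0.0501) passed under 6 other settings, at an adjusted p of 0.000564 to 0.0484, and without any one of 8 libraries (A2058 KD2 replicate 2, A375 NT replicate 2, KD1 replicate 3 and KD2 replicates 1 and 2, and replicate 2 of each SKMEL2 arm; adjusted p = 0.0198 to 0.0498). Leaving out 1 library gave 1 to 2 genes higher in A2058 (2 without KD1 replicate 2), 2 to 4 lower with both hairpins in SKMEL2 (2 without KD1 replicate 3) and 3 to 7 that differed between hairpins in A375 (7 without KD2 replicate 3). Over all results, leaving out a library left the call the same for 2812 values, some of which moved in size, while 33 passed anew and 41 no longer did. The other pseudocounts ended no call. SLC6A9 in SKMEL2 and A2058 is limited by its read count: by voom on recovered reads its effect in A375 minus A2058 was 1.57 in place of 0.29, and SKMEL2 minus A375 did not pass (0.45, adjusted p = 0.640).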
